A study of Mus musculus with 3 samples.

Results

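Eomes, Neurog2, Neurod1, Neurod2, Sox4, Sox11 and Prox1 are transcription factor genes that mark successive steps of granule neuron formation in the adult dentate gyrus. These 7 genes were followed by name among the 15535 genes that had a row in at least 1 of 3 single-cell count tables. Their unique molecular identifier (UMI) counts were read across cell types that had been called from other genes, within single cells, and between 3 groups of mice. Each group was 1 library. The control mice were 8 weeks old and housed without a wheel. The runner mice were littermates of the same age that had a running wheel for 12 days, and the aged mice were 14 months old and did not run. The sample labels give the strain of all 3 libraries as hGFAP-eGFP, a reporter line in which the human GFAP promoter drives green fluorescent protein. The series description calls the animals wild type and names that reporter for the aged mice. No sorting step is described, and the sources used here do not say how many mice made up a library.

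In the dentate gyrus, radial glia-like stem cells give rise to intermediate progenitors, then to neuroblasts and immature neurons, and finally to granule neurons. Eomes (Tbr2) is a T-box factor known for intermediate progenitors, and Neurog2 is a proneural basic helix-loop-helix factor of the same step. Neurod1 and Neurod2 are basic helix-loop-helix factors of neuronal differentiation, the first needed for survival and maturation of newborn granule neurons. Sox4 and Sox11 are SoxC factors that activate neuronal genes in immature neurons, and Prox1 is a homeodomain factor that specifies and maintains granule neuron identity.

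The RefSeq promoter windows of 4 of the 7 genes are shown because their levels divide the set into an early gene, genes of immature neurons and a late gene. All 7 had a RefSeq window (GRCm38.p6) of 300 bases, and Prox1 had 2. Each sequence below reads 5′ to 3′ on the strand of its gene and stops before the first annotated base of the gene in RefSeq and in GENCODE. Capitals mark CANNTG, the E-box letters that basic helix-loop-helix factors recognise.
Eomes, chr9:118477939-118478188, plus strand: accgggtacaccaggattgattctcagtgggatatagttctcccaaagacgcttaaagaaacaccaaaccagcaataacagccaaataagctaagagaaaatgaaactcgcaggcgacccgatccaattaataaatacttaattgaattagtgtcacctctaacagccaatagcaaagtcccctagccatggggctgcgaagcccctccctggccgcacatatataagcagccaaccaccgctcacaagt
Neurod1, chr2:79456752-79456886, minus strand: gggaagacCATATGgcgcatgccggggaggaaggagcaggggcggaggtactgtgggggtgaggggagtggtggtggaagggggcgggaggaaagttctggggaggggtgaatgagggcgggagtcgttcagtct
Sox11, chr12:27342719-27342968, minus strand: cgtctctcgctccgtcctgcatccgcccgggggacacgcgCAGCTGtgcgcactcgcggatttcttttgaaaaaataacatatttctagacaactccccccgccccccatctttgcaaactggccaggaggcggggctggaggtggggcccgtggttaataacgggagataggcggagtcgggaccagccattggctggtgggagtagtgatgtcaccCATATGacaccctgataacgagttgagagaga
Neurod2, chr11:98329649-98329895, minus strand: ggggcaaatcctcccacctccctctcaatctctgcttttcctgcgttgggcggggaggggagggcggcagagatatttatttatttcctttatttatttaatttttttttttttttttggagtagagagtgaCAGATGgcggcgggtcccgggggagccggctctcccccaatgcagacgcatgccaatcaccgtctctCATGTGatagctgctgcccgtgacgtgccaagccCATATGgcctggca
The Eomes stretch held no CANNTG, the Neurod1 stretch held 1, the Sox11 stretch 2 and the Neurod2 stretch 3. CANNTG reads the same on both strands, and 72.3% of 32851 RefSeq windows of that length held it at least 1 time. Over the full windows it was found for Neurod1, Neurod2, Sox4, Sox11 and Prox1 and not for Eomes or Neurog2. CAGATG, one form of CANNTG, was found on either strand for Neurod2 and Prox1 and in 17.2% of all windows. The SOX letters AACAAT were found for Neurog2 and in 10.7% of all windows, and the T-box letters GGTGTGA for none of the 7 and in 3.98% of all. These matches describe letters in the windows and say nothing of binding.

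On GRCm38 with GENCODE annotation, Eomes lies on chromosome 9 (118478212 to 118486132), Neurog2 on chromosome 3 (127633135 to 127635631) and Neurod1 on chromosome 2 (79452521 to 79456751). Neurod2 lies on chromosome 11 (98325415 to 98329648) and Prox1 on chromosome 1 (190118035 to 190170714). Sox4 on chromosome 13 (28948919 to 28953713) and Sox11 on chromosome 12 (27334264 to 27342574) are genes of 1 exon. The tables also list genes that overlap members: Prox1os with 109 UMIs and Gm28172 with 6 on the strand opposite Prox1, Gm26735 with 57 opposite Sox4, and Cerkl with 22 on the strand of Neurod1. The sources used here do not say whether the counting used strand, so reads of Prox1 and Sox4 cannot be told apart from those of their opposite-strand neighbours. Neurod1 and Cerkl overlap on one strand, so how reads in their overlap were assigned is uncertain under either setting.

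Of 2356 control, 3328 runner and 2421 aged barcodes, 514, 969 and 393 had at least 200 genes and under 10% mitochondrially encoded UMIs and were used. The median depth was 1457, 1754 and 1413 UMIs per cell used. Neurog2 had no row in the control or aged table, which list a gene only when at least 3 barcodes hold it, so it is given there as not listed. No barcode was shared between the control cells used and those of another library, and 2 were shared between runner and aged. Clusters made without the 7 genes and named from other markers gave 218 neuroblast-like cells (33 control, 173 runner, 12 aged), 103 mature glutamatergic neuron-like cells (31, 58 and 14) and 28 cycling cells (10, 15 and 3). The rest were mainly microglia-like (800), astrocyte-like (241), oligodendrocyte-like (195), Cajal-Retzius-like (156) and oligodendrocyte precursor-like (91). All class names below mean cells like that type. In neuroblasts, 14 of 17 markers, none of them a member, were at least 2-fold above the other cells. In mature neurons this held for 14 of 16 granule neuron markers and 9 of 12 listed pyramidal neuron markers, while the pyramidal genes Neurod6 and Meis2 were at 0. The classes were named from these same markers, so the counts were set in part by the naming. Levels are CPM, UMIs of the gene per 1000000 UMIs of the summed cells, and intervals in brackets are exact 95% intervals that cover counting error only. Because the kit counts 3′ ends and the values are not scaled by length, levels are compared within a gene and not between genes.

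Each group had a single library and so no replicate, which left no test between groups, and no p-value is given. A gene is called higher or lower when its CPM ratio was at least 2 or at most 0.5 with at least 20 UMIs over both sides. Since the clusters came from the same cells, class contrasts are descriptions as well.

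All 7 genes were at least 2-fold higher in neuroblasts than in the other classes, against 16.3% of the 11326 genes with enough UMIs. Sox11 reached 3048 CPM in neuroblasts (2881 to 3221) and 53.8 elsewhere, and it was detected in 211 of 218 neuroblasts. Neurod1 stood at 980.1 CPM (886.6 to 1081) and 14.4, so that 402 of its 442 UMIs, 91.0%, were in this class. Sox4 stood at 1141 and 93.8 CPM, Prox1 at 570.5 and 66.0, Neurod2 at 212 and 30.3, Eomes at 107 and 4.33, and Neurog2 at 48.8 and 1.80. Both Neurog2 levels count control and aged cells, whose tables do not list it. The ratios ran from 7.00 (5.13 to 9.56) for Neurod2 to 67.9 (49.0 to 96.5) for Neurod1. There were 5 genes highest in neuroblasts among the 8 classes of at least 20 cells, Eomes was highest in cycling cells and Neurod2 in mature neurons. By library, 4 of 4 genes with enough UMIs were 2-fold higher in control neuroblasts (18.3% of all genes), 7 of 7 in runner (16.1%) and 3 of 3 in aged (20.4%). The Neurod2 call rests on the runner library, since Neurod2 had 1 neuroblast UMI against 9 elsewhere in control, a ratio of 1.79 (0.0408 to 12.9), and 0 against 8 in aged. The 19 endothelial-like cells held none of the 7 genes, though only 1 of them came from runner, the library that lists Neurog2.

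**Figure D1:**
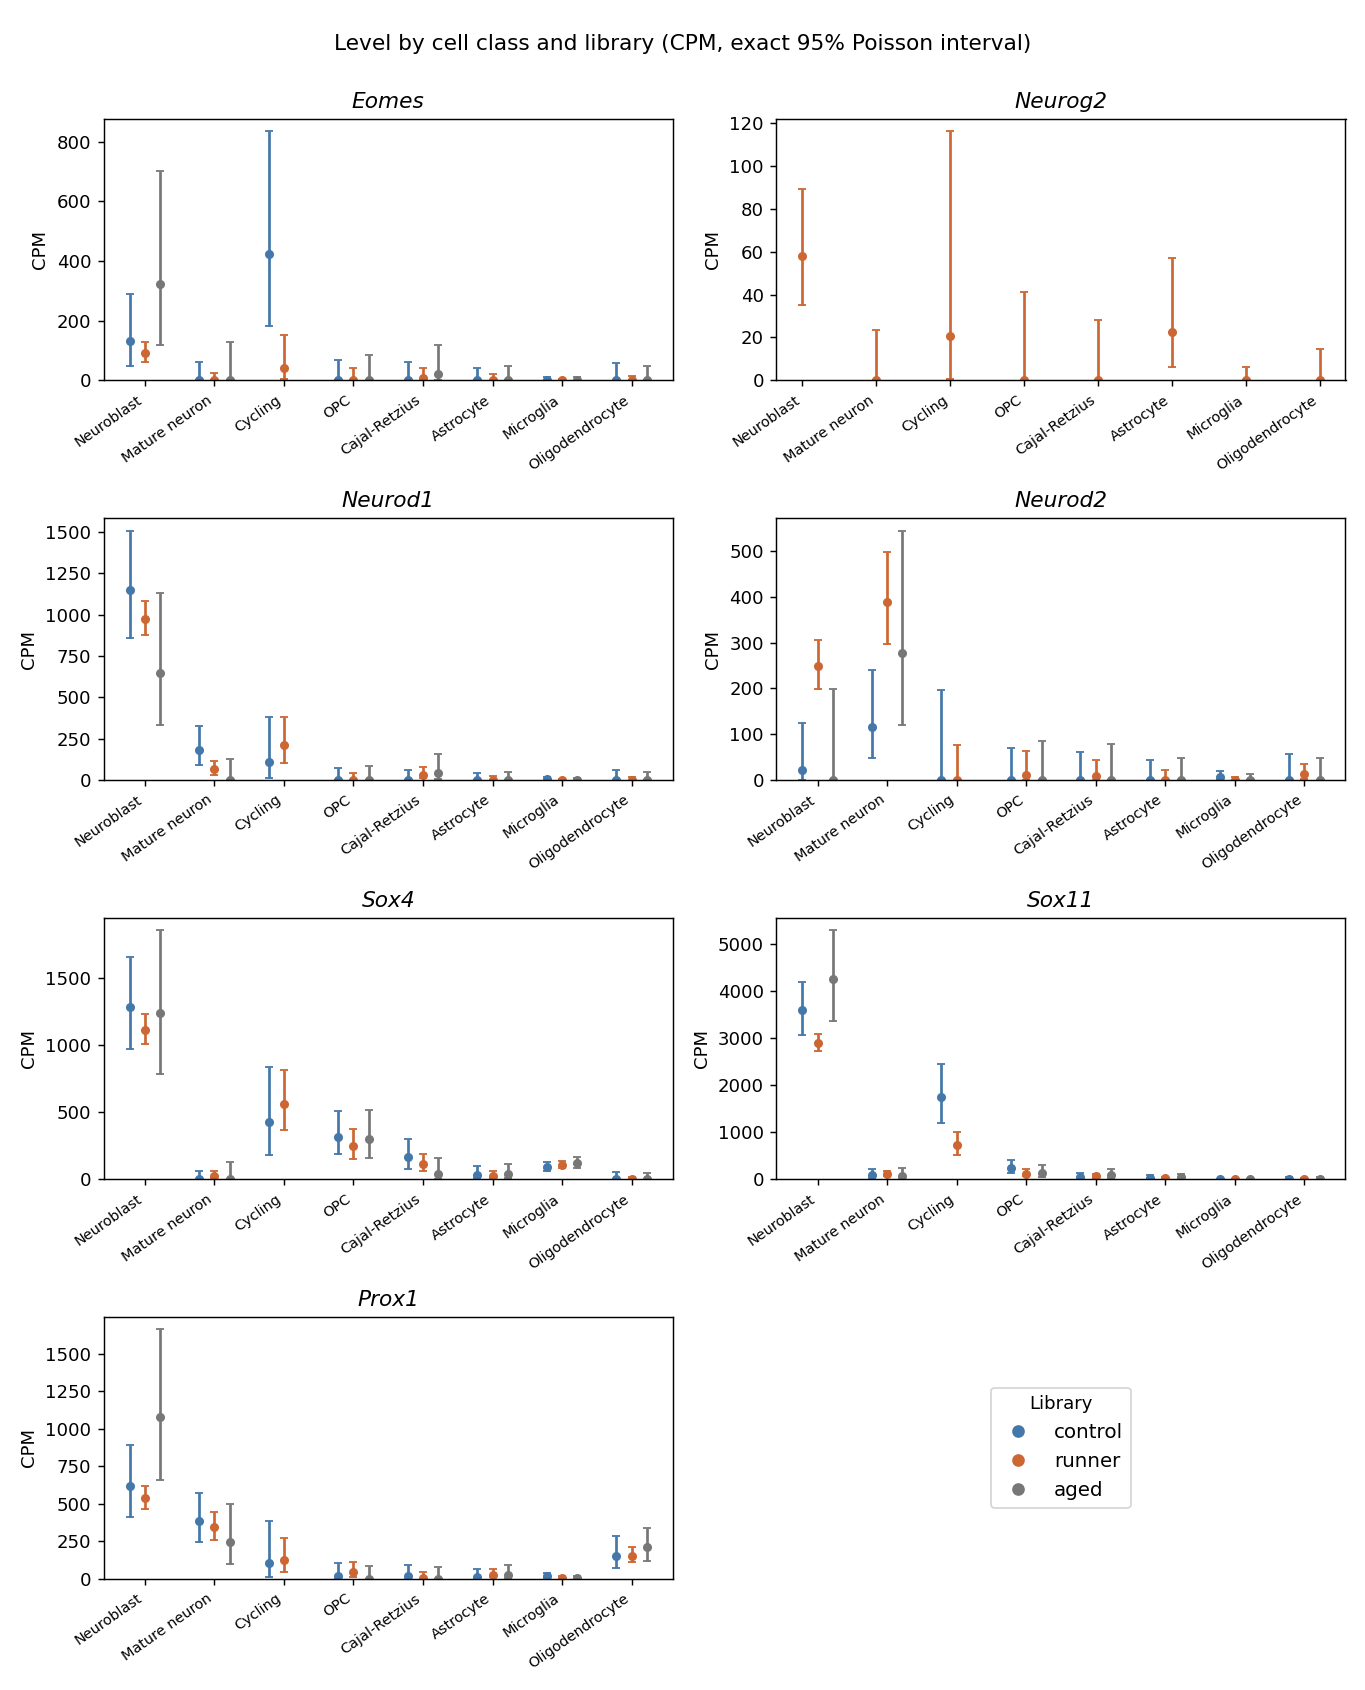
Level of each gene (CPM, vertical axis from 0, separate scale per gene) in 8 cell classes, with 1 point per library and exact 95% Poisson intervals; classes of under 10 cells in a library are left out, and Neurog2 is drawn for the runner library alone, where it is listed. Sox11 and Neurod1 stand highest in neuroblasts in all 3 libraries, Neurod2 in mature neurons in all 3, and Prox1 has a further level in oligodendrocytes.

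Eomes and Neurog2, the progenitor genes, were rare. Eomes had 56 UMIs in 39 cells: 32 neuroblasts, 5 cycling cells and 2 Cajal-Retzius cells. In neuroblasts it was at 133 CPM (48.7 to 289) in control, 92.4 (63.2 to 130) in runner and 323 (119 to 704) in aged, the last from 6 UMIs in 5 of 12 cells. In cycling cells it was at 424 CPM (183 to 835) in control and 41.7 (5.05 to 151) in runner, from 10 and 15 cells. Only 5 cycling cells in all held it, so these 2 levels rest on few cells. The pooled levels in cycling cells (139.8, 67.0 to 257) and neuroblasts (107, 77.9 to 144) had overlapping intervals, so their order is not settled by counting error. Eomes had a UMI in 0 of 103 mature neurons, with an exact interval up to 3.52%, and in 0 of 800 microglia. Such a limit is on cells with a UMI and not on cells that express the gene.

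Neurog2 had 25 UMIs in 15 runner cells, of which 11 were neuroblasts, 1 was cycling and 3 were astrocytes. Its level was 57.7 CPM (35.3 to 89.2) in runner neuroblasts and 22.4 (6.09 to 57.3) in runner astrocytes, with overlapping intervals. The astrocyte value rests on 4 UMIs in 3 of 125 cells. Of the 15 Neurog2 cells, 5 also held Hopx, a gene of astrocytes and quiescent stem cells, and 8 held the stem cell gene Sox2, against 8.21% and 9.01% of all cells used. Within neuroblasts, 1 of the 11 Neurog2 cells held Hopx and 5 held Sox2, against 1.38% and 16.5% of that class. The Neurog2 cells were deeper than all cells used, at medians of 2302 and 1590 UMIs. Only the runner table lists Neurog2, and the 355 runner microglia, at a median of 1582 UMIs per cell, held none of it. The 125 runner astrocytes had a median of 1307 UMIs. Whether free RNA or doublets contributed to the astrocyte UMIs was not tested.

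Neurod1 and Neurod2 had different class profiles. Neurod1 was detected in 21 of 33 control, 131 of 173 runner and 8 of 12 aged neuroblasts, at 1151 CPM (859 to 1509), 976 (874 to 1085) and 646 (334 to 1129). The 3 intervals overlap. In mature neurons it was at 183 CPM in control, 63.6 in runner and 0 in aged, and no UMI was found in 241 astrocytes, 195 oligodendrocytes or 91 oligodendrocyte precursors.

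Neurod2 was at 22.1 CPM (0.560 to 123) in control neuroblasts, from 1 UMI, at 248 (199 to 307) in runner neuroblasts, from 86 UMIs, and at 0 in the 12 aged ones. In mature neurons it was at 116 CPM (46.7 to 240) in control, 388 (297 to 498) in runner and 277 (119 to 545) in aged. Within each library, then, the mature neurons had the higher Neurod2 level, although the intervals of both classes overlapped in each. Over the pooled cells, mature neurons against neuroblasts gave a ratio of 1.45 (1.06 to 2.00). Microglia held Neurod2 in 2 of 800 cells and Neurod1 in 1.

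Sox4 and Sox11, though both highest in neuroblasts, differed outside them. Sox4 was detected in 23 of 33, 139 of 173 and 10 of 12 neuroblasts at 1283, 1117 and 1239 CPM. Next came cycling cells at 489 CPM (341 to 681) and oligodendrocyte precursors at 279 (209 to 366), whose intervals overlap slightly. Sox4 in the precursors was at 319, 246 and 300.5 CPM in control, runner and aged. Microglia held Sox4 in 105 of 800 cells (13.1%, 10.9 to 15.7), at 91.8, 105 and 121 CPM in the 3 libraries, while Sox11 was found in 1 of the same 800. Thinned to 1000 UMIs per cell, Sox4 remained in 65 of 632 microglia (10.3%) and in 0 of 173 oligodendrocytes. In neuroblasts Sox11 had 1250 UMIs and Sox4 468, the reverse of the order in microglia (1 and 130), so the counts of both genes were not in 1 ratio across classes. Mature neurons held 4 Sox4 UMIs in 103 cells.

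Sox11 was detected in 31 of 33 control, 169 of 173 runner and 11 of 12 aged neuroblasts. Its levels there were 3607 CPM (3074 to 4205), 2910 (2733 to 3095) and 4256 (3369 to 5304), with runner lowest and its interval apart from that of aged. Cycling cells came next at 951 CPM (738 to 1205), then oligodendrocyte precursors at 161 (109 to 230) and mature neurons at 101 (65.7 to 150), and these last 2 overlap.

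Prox1 was spread over 3 classes. In neuroblasts it was at 619.5 CPM (412 to 895) in control, 537 (462 to 620) in runner and 1077 (658 to 1664) in aged, and in mature neurons at 382 (242 to 573), 343 (258 to 448) and 242 (97.3 to 499). Oligodendrocytes held it at 154, 154 and 210 CPM, in 57 of 195 cells (29.2%, 22.9 to 36.1). Over the pooled cells the neuroblast, mature neuron and oligodendrocyte intervals were apart, at 500 to 648, 272 to 422 and 127 to 210. Microglia had 10 positive cells of 800 (1.25%, 0.601 to 2.29), and after thinning Prox1 was in 22 of 173 oligodendrocytes (12.7%) and 5 of 632 microglia (0.791%). Prox1 was thus detected in oligodendrocytes above the share in microglia, with Prox1os reads on the other strand as a limit on its count.

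From neuroblasts to mature neurons, 5 of the 7 genes were at least 2-fold lower, against 20.6% of 5434 genes, and none was 2-fold higher, against 22.5%. Sox4 had a ratio of 0.0142 (0.00386 to 0.0367), Sox11 of 0.0333 (0.0215 to 0.0494) and Neurod1 of 0.0870 (0.0532 to 0.135). Eomes had no UMI in mature neurons, and Neurog2 had none in the 58 of runner, the only library that lists it. Prox1, at 0.598 (0.460 to 0.770), and Neurod2, at 1.45, stayed within 2-fold. For Neurod2 the pooled value is mostly that of runner, at 1.56 (1.11 to 2.20), while control had 7 mature neuron UMIs against 1 and aged 8 against 0, too few to be called. In control 3 of 4 measured genes were lower (19.7% of all genes) and in runner 5 of 7 (23.1%).

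Finer clustering, at resolution 2.0, divided the 218 neuroblasts into a large cluster of 189 cells (26 control, 156 runner, 7 aged) and a small one of 29 cells (7, 17 and 5). The small cluster was led by Ccnd2, Stmn1 and Pclaf and had 7 cells with at least 3 proliferation genes, while the large one had none. Eomes was detected in 15 of 29 small-cluster cells (51.7%, 32.5 to 70.6) and in 17 of 189 large-cluster cells (8.99%, 5.33 to 14.0). Neurog2, listed in the runner table alone, was in 6 of the 17 runner cells of the small cluster and in 5 of the 156 of the large one. The order was opposite for Neurod1, with 6 of 29 (20.7%, 7.99 to 39.7) against 154 of 189 (81.5%, 75.2 to 86.8). Neurod2 was in 0 of 29, with an exact interval up to 11.9%, and in 56 of 189 (29.6%). Calb2, the calretinin gene of early postmitotic granule neurons, divided in the same way as Neurod2, with 0 of 29 and 142 of 189.

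As CPM ratios of small against large cluster, Neurog2 was at 16.9 (5.85 to 59.6) and Eomes at 5.16 (2.71 to 9.74), 2 of 7 genes against 8.44% of 3390 genes. The Neurog2 ratio is over the cells of all libraries, although only the runner table lists the gene. On the low side were Neurod1 at 0.129 (0.0587 to 0.248), Prox1 at 0.442 (0.253 to 0.725) and Neurod2 with no UMI against 87, 3 of 7 against 16.9%. Sox4 at 0.799 (0.596 to 1.05) and Sox11 at 0.712 (0.593 to 0.850) were the genes closest to equal. Median depths were similar, 1986 and 1842 UMIs per cell.

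**Figure D2:**
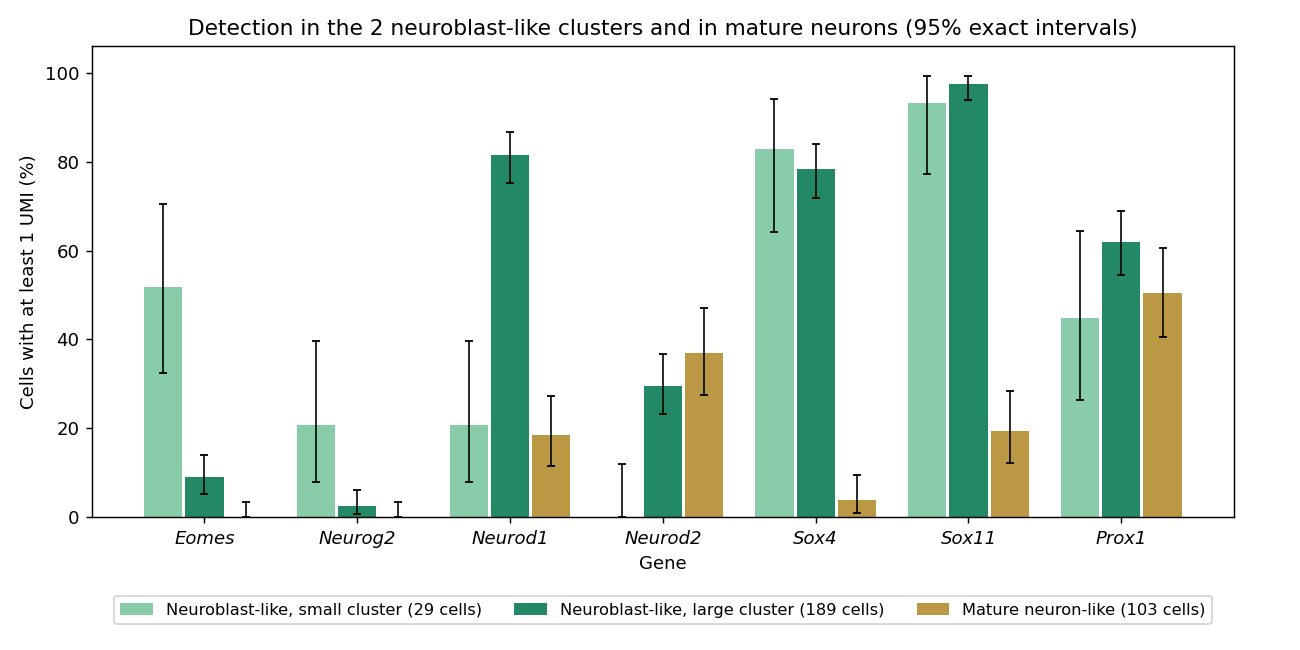
Share of cells with at least 1 UMI of each gene (percent, bars from 0, exact 95% intervals) in the small and large neuroblast-like clusters and in mature neuron-like cells, over the 3 libraries. Eomes and Neurog2 are highest in the small cluster, Neurod1 in the large one, and Neurod2 is at 0 in the small cluster and at 36.9% in mature neurons. The Neurog2 bars count control and aged cells, where the gene is not listed.

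Joint detection was counted in single cells. Of 218 neuroblasts, 185 (84.9%, 79.4 to 89.4) held at least 3 of the 7 genes and 3 held none, while mature neurons had 18 of 103 with at least 3. Outside neuroblasts, mature neurons and cycling cells, 2 cells held 3 or more, 1 microglial cell and 1 oligodendrocyte precursor. Of the 39 Eomes cells, 38 held Sox11 (97.4%, 86.5 to 99.9), 29 held Sox4, 19 held Neurod1 (48.7%, 32.4 to 65.2) and 2 held Neurod2 (5.13%, 0.627 to 17.3). Over all cells used, Sox11 was in 15.7%, Sox4 in 18.8%, Neurod1 in 10.1% and Neurod2 in 5.44%. The Neurod2 share in Eomes cells was thus near that of all cells used, most of which were not neuroblasts. Within neuroblasts it was lower, with Neurod2 in 2 of 32 Eomes cells and in 56 of all 218 cells. Of the 15 Neurog2 cells, 7 held Eomes, 11 held Sox11 and 4 held Neurod1.

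The other genes in Eomes cells and in Neurod2 cells were read next, as counts with no test. Within neuroblasts, 9 of 32 Eomes cells held Calb2, against 65.1% of all neuroblasts, and 26 of 32 held the cyclin gene Ccnd2, against 39.9%. Over all cells used, 12 of 39 Eomes cells had at least 3 proliferation genes, against 1.97% of all cells. Within neuroblasts, 53 of 56 Neurod2 cells held Calb2 (94.6%, 85.1 to 98.9), 45 held Neurod1 and 2 held Eomes. Of all 218 neuroblasts, 160 held Neurod1 and 32 held Eomes.

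Of 190 Neurod1 cells, 170 held Sox11 (89.5%, 84.2 to 93.5), 117 held Prox1, 54 held Neurod2 and 19 held Eomes. By library, Sox11 was in 25 of 34 control, 137 of 146 runner and 8 of 10 aged Neurod1 cells. In the other direction 170 of 294 Sox11 cells held Neurod1 (57.8%). Neurod2 cells held Prox1 in 69 of 102 cases (67.6%, 57.7 to 76.6) and Sox11 in 63. Inside neuroblasts, where Sox11 was in 96.8% of cells, Neurod1 cells held it in 158 of 160. After thinning to 1000 UMIs, which kept 1537 cells, Sox11 was in 113 of 125 Neurod1 cells (90.4%), Neurod1 in 10 of 24 Eomes cells (41.7%) and Eomes in 0 of 58 Neurod2 cells. Eomes was in 1.56% of all thinned cells, a share within the interval for Neurod2 cells (0 to 6.16%). It was in 20 of 206 thinned neuroblasts (9.71%), the class of 36 of the 58 Neurod2 cells. These shares depend on depth, since a gene with few UMIs is missed in cells that express it, and Prox1 among Neurod2 cells dropped to 19 of 58 (32.8%) when thinned.

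**Figure D3:**
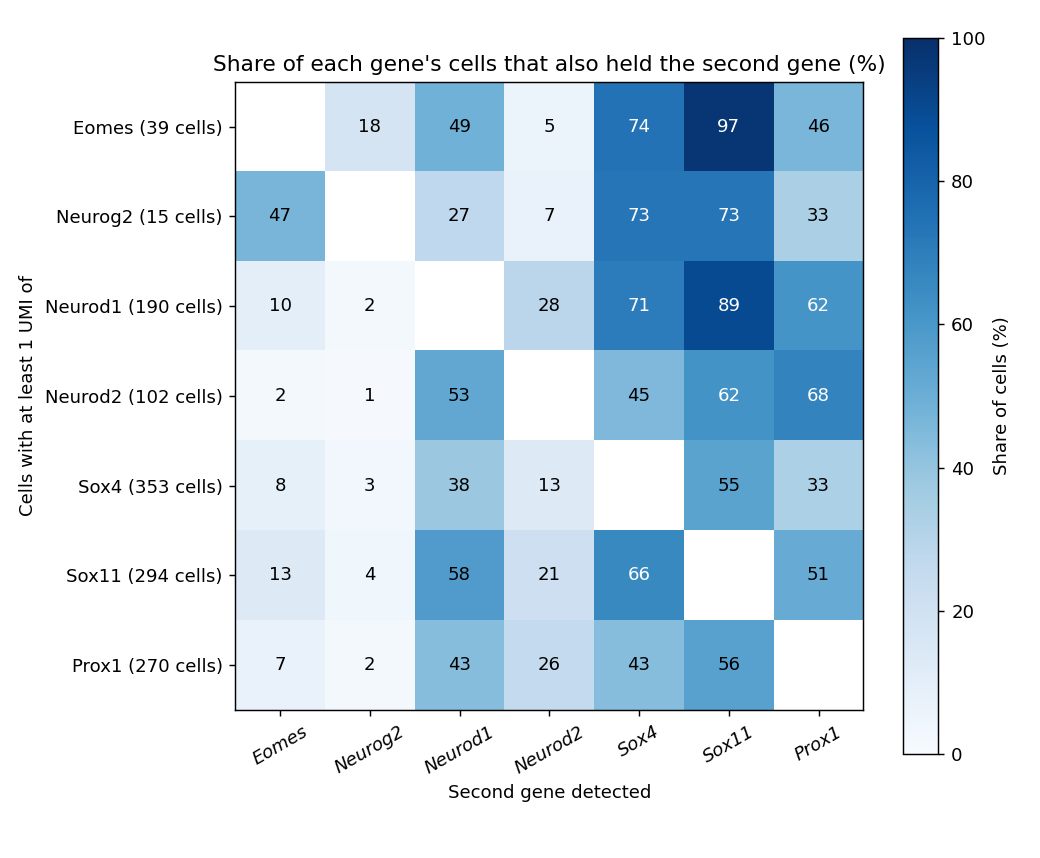
Share (percent, colour and number) of the cells holding at least 1 UMI of the gene in each row that also held the gene in each column, over all 1876 cells used. Sox11 is in 97.4% of Eomes cells and 89.5% of Neurod1 cells. Eomes and Neurod2 share 2 cells, 5.13% of Eomes cells, near the 5.44% of all cells with Neurod2. Both cells are among the 32 neuroblasts with Eomes, while 56 of all 218 neuroblasts held Neurod2. The Neurog2 column counts control and aged cells, where the gene is not listed.

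Levels of the genes across 19 class-by-library sums of at least 20 cells are given as a description over points that share libraries and depth. Neuroblasts entered with their control and runner sums alone, and cycling cells with none. Eomes was at 0 CPM in mature neurons, astrocytes, microglia, oligodendrocytes and oligodendrocyte precursors, so a high r for it rests mainly on the neuroblast sums. Between the small and large neuroblast clusters, Eomes and Neurod1 went in opposite directions. On log2(CPM + 20), Pearson's r was 0.88 for Eomes with Neurod1, 0.84 for Eomes with Sox11 and 0.84 for Neurod1 with Sox11. It was 0.76 for Sox4 with Sox11, 0.71 for Neurod2 with Prox1, 0.70 for Neurod1 with Prox1, 0.68 for Neurod1 with Neurod2, 0.66 for Eomes with Sox4, 0.36 for Eomes with Neurod2, 0.11 for Neurod2 with Sox4 and -0.01 for Sox4 with Prox1. Among 4931 genes, those most like Eomes were Igfbpl1 (r = 0.94), Sema3c, Pclaf, Neurod1 and Elavl2, and those most like Neurod1 were Igfbpl1 (0.88), Dbn1, Nrep, Sema3c and Zbtb18. Neurod2 was most like Rbfox3 (0.87), Synpr, Nedd4l, Epha4 and Frrs1l. Sox11 was most like Snrpe (0.96), Dcx, Snrpg, Dpysl3 and Sumo2, and Sox4 most like Ppp1r14b (0.86), Srsf7, Snrpe, Ranbp1 and Tubb5. Prox1 was most like its antisense neighbour Prox1os (0.92), then Synpr, Trim2, Epha4 and Gm43843. Neurog2, with 25 UMIs, was too low for this measure.

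Runner against control compares 1 library of each group, so running cannot be told apart from other differences between the libraries. Over all cells used, Neurod2 was at 12.9 CPM (6.20 to 23.8) in control and 84.9 (72.0 to 99.5) in runner, Neurod1 at 85.4 and 201, and Sox11 at 285 and 602. Their ratios were 6.57 (3.47 to 14.0), 2.35 (1.81 to 3.11) and 2.12 (1.83 to 2.46). These were the 3 of 6 measured genes called higher, against 6.6% of 10662 genes, and 0 of 6 were called lower, against 2.59%. Sox11 was near the threshold, and its call was lost when CPM was averaged over cells, with a log2 ratio of 0.98 beside 1.08. Prox1 at 1.78 (1.37 to 2.33) and Sox4 at 1.72 (1.42 to 2.1) stayed under 2-fold with intervals above 1. Eomes was at 18.1 and 19.4 CPM, a ratio of 1.07 (0.563 to 2.16). Neuroblasts were 33 of 514 control and 173 of 969 runner cells used, and in sums over all cells more neuroblasts and more RNA of a gene per cell cannot be told apart.

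Within neuroblasts, 1 of 6 genes was called higher, a share near the 16.6% of 3246 genes, and 0 were called lower, against 5.21%. That gene was Neurod2, with a ratio of 11.2 (1.96 to 448) from 86 UMIs against 1. For the other 5 the ratios were 0.696 (0.287 to 2.04) for Eomes, 0.848 (0.632 to 1.16) for Neurod1, 0.867 (0.580 to 1.34) for Prox1, 0.807 (0.683 to 0.958) for Sox11 and 0.871 (0.659 to 1.17) for Sox4. Without the mitochondrial filter 4 of these turned direction, with log2 ratios of 0.55 for Neurod1, 0.59 for Prox1, 0.31 for Sox4 and 0.08 for Sox11. The neuroblast class was then a different set, with 80 control and 204 runner cells. Of its cells 17.5% had at least 3 proliferation genes, against 3.21% in the main class. With the filter, runner neuroblasts were deeper, at a median of 1979 against 1378 UMIs. After thinning, Neurod2 was in 35 of 169 runner neuroblasts (20.7%, 14.9 to 27.6) and 1 of 27 control ones (3.70%, 0.0937 to 19.0), with overlapping intervals.

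Neuroblasts also differed between libraries in Calb2, which was detected in 6 of 33 control, 130 of 173 runner and 6 of 12 aged cells. Neurod2 was in 53 of the 130 Calb2 cells of runner (40.8%, 32.2 to 49.7), in 0 of 6 in control (0 to 45.9%) and in 0 of 6 in aged. Among neuroblasts without Calb2, it was in 1 of 27 control, 2 of 43 runner (4.65%) and 0 of 6 aged cells. The part that the share of Calb2 cells plays in the Neurod2 ratio was not tested. Sox11 was in 25 of 27 and 41 of 43 control and runner cells without Calb2, and Eomes in 4 of 27 (14.8%, 4.19 to 33.7) and 15 of 43 (34.9%, 21 to 50.9).

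**Figure D4:**
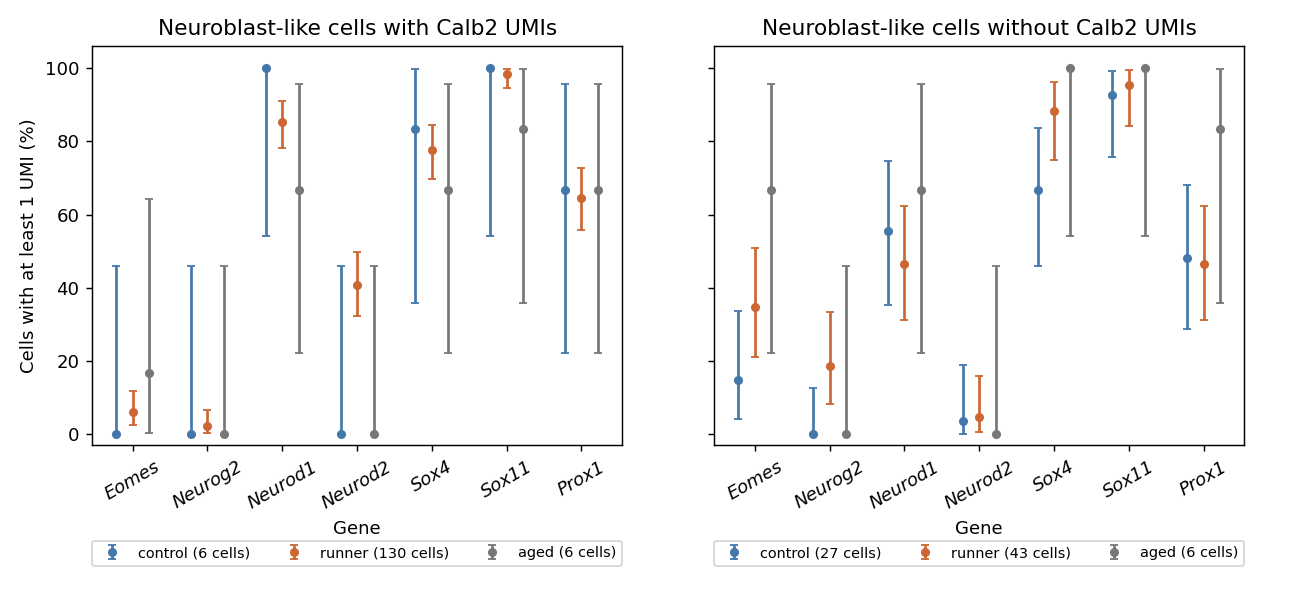
Share of neuroblast-like cells with at least 1 UMI of each gene (percent, exact 95% intervals), by library, for cells with a Calb2 UMI at left and without at right. Neurod2 reaches 40.8% in runner cells with Calb2 and 4.65% in those without, and Sox11 is above 80% in every group shown. Neurog2 is drawn at 0 for control and aged, whose tables do not list it.

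In mature neurons, Neurod2 had 7 UMIs in control and 61 in runner, a ratio of 3.34 (1.53 to 8.65), and was detected in 4 of 31 and 30 of 58 cells. Neurod1 had 11 and 10 UMIs, a ratio of 0.348 (0.133 to 0.903). They were the 1 of 4 genes called higher, against 8.94% of 2092 genes, and the 1 of 4 called lower, against 3.73%. Prox1 at 0.899 (0.543 to 1.54) and Sox11 at 1.09 (0.408 to 3.36) had intervals that hold 1. The median depth of these cells was 1819 UMIs in control and 2824 in runner. Thinned, Neurod2 was in 2 of 24 control (8.33%, 1.03 to 27) and 15 of 55 runner cells (27.3%, 16.1 to 41.0), and Neurod1 in 3 of 24 and 0 of 55. Without the mitochondrial filter the log2 ratio of Neurod2 over all cells was 1.77 in place of 2.65, and barcodes with 10 to 30% mitochondrially encoded UMIs held it at 29.3 CPM in control and 74.9 in runner.

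In other classes no member was called higher or lower in runner. The shares of all genes called higher and lower were 9.59% and 3.3% in oligodendrocytes, 5.0% and 2.09% in microglia, 6.66% and 4.1% in oligodendrocyte precursors, 8.78% and 2.8% in Cajal-Retzius cells, and 9.47% and 2.69% in astrocytes, where no member had 20 UMIs. Prox1 in oligodendrocytes had a ratio of 1.0 (0.490 to 2.25), Sox4 in microglia of 1.15 (0.739 to 1.81) and Sox4 in oligodendrocyte precursors of 0.770 (0.391 to 1.55). Sox11 in the precursors was at 0.504 (0.204 to 1.22), from 13 control and 11 runner UMIs, and Sox4 in Cajal-Retzius cells at 0.707 (0.297 to 1.76).

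Aged against control had few neurogenic cells: 12 aged neuroblasts against 33. With 1 library of each, age cannot be told apart from other differences between the libraries. Over all cells used, Neurod1 was at 23.1 CPM (12.6 to 38.7) in aged and 85.4 (66.0 to 109) in control, a ratio of 0.270 (0.140 to 0.486). It was the 1 of 5 measured genes called lower, against 3.52% of 8091 genes, and 0 were called higher, against 3.32%. Sox11 was at 155 and 285 CPM, a ratio of 0.544 (0.423 to 0.696). Sox4 at 0.754 (0.561 to 1.01), Prox1 at 0.831 (0.563 to 1.22) and Eomes at 0.636 (0.217 to 1.69) had intervals that hold 1. Neurod2 had 8 and 10 UMIs, too few to be called, and Neurog2 was listed in neither table. With 12 aged neuroblasts, Sox11 at 4256 CPM, Prox1 at 1077 and Eomes at 323 were all above the control values of 3607, 619.5 and 133, and Neurod1 at 646, Sox4 at 1239 and Neurod2 at 0 were below the control values of 1151, 1283 and 22.1. Each pair of intervals overlapped. In the other classes no member was called in aged: Prox1 in oligodendrocytes was at 1.36 (0.579 to 3.35), with 6.34% of all genes called higher and 3.26% lower, and Sox4 in microglia at 1.32 (0.799 to 2.18), with 4.39% and 3.54%. Sox4 in oligodendrocyte precursors was at 0.942 (0.421 to 2.06), with 4.47% and 8.24%. In astrocytes (5.62% and 3.54%) and Cajal-Retzius cells (4.07% and 8.51%) no member had 20 UMIs. The ratios for running and for age were both formed on the one control library and are not independent.

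**Figure D5:**
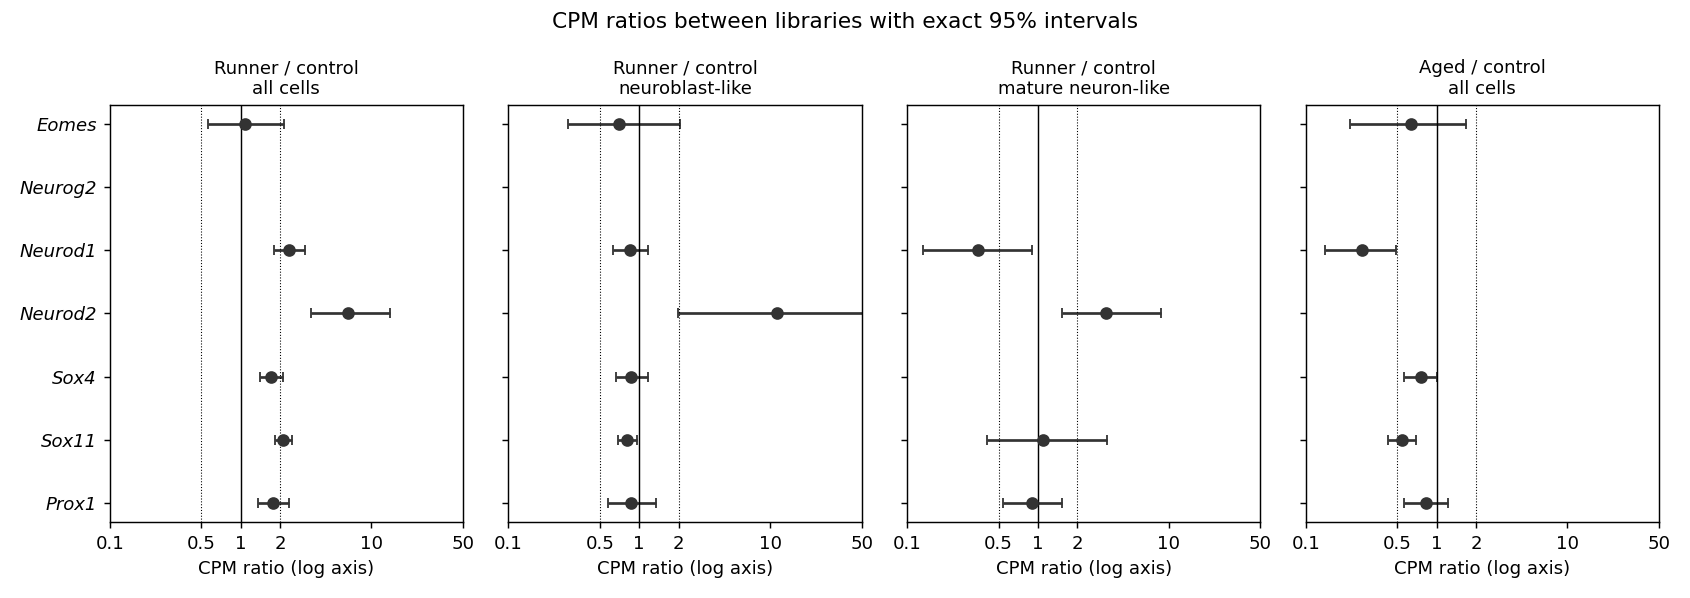
CPM ratio of each gene (log axis, points with exact 95% intervals, dotted lines at 0.5 and 2) for runner against control over all cells, in neuroblast-like and in mature neuron-like cells, and for aged against control over all cells; genes with under 20 UMIs over both libraries are not drawn, and the neuroblast interval of Neurod2 runs past the axis to 448. Neurod2 is to the right of 2 in the 3 runner panels, whereas Neurod1 lies above 2 over all cells and at 0.848 in neuroblasts.

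Other genes of the pathway were read from 4 lists. Among neurogenic and regional transcription factors without the members, 29 of 44 measured genes were at least 2-fold higher in neuroblasts and 5 lower, with a median log2 ratio of 1.91 beside 0.05 over all genes, of which 16.3% were higher and 27.7% lower. The furthest above were Neurod6, at 178 and 1.08 CPM, Scrt2, Nfib and Emx1, and the furthest below were Mef2c, Etv1, St18 and Pou3f1. Of the glial and stem cell factors, 3 of 26 were higher, namely Sox5, Sox1 and the Notch ligand Dll1, and 14 lower, led by Olig1, Hes1, Hes5 and Hopx. Of the immature neuron genes, 26 of 29 were higher, led by Tac2, Igfbpl1, Sema3c and Calb2, and 1, Fxyd7, was lower. This list holds all 17 markers from which neuroblasts were named, these leaders among them. Its count was therefore set in part by the naming. The maturation list likewise holds all 16 granule neuron markers used to name mature neurons. Of the granule neuron maturation genes, 3 of 24 were higher (Rbfox3, Pcp4 and Grin2b) and 16 lower, led by Dock10, Nrgn, C1ql3 and Calb1.

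For runner against control over all cells, 10 of 39 neurogenic factors were called higher and 0 lower, with a median log2 ratio of 0.43 beside 0.07 over all genes, of which 6.6% were higher and 2.59% lower. They were led by Emx1, at 15.5 and 78.3 CPM, Nfib, Zbtb20 and Neurod6, a relative of Neurod2 at 11.6 and 36.6 CPM. Of the immature neuron genes 14 of 29 were higher and 0 lower, led by Tac2, Calb2, Sema3c and Igfbpl1. Of the glial and stem cell factors 0 of 25 were higher and 4 lower, Id3, Id1, Rest and Sox21. Of the maturation genes 2 of 23 were higher, Grin2b and Rasl10a, a share near that of all genes. Within neuroblasts, the neurogenic factors had 4 of 28 higher and 0 lower, with a median log2 ratio of -0.05, and the immature neuron genes 5 of 28 higher and 0 lower. Both shares of higher genes are near the 16.6% of all genes. Of the glial and stem cell factors 0 of 5 were higher and 3 lower, with a median of -1.10, where 5.21% of all genes were lower. For aged against control over all cells, 1 of 29 neurogenic factors was higher and 1 lower, and the immature neuron genes had 0 higher and 1 lower of 23, with a median log2 ratio of -0.33. The maturation genes had 0 higher and 3 lower of 20, with a median of -0.50, and the glial and stem cell factors 1 higher and 1 lower of 22. Over all genes 3.32% were higher and 3.52% lower, with a median of 0.01.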

How the data were processed

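Dentate gyrus was profiled by droplet single-cell RNA sequencing (10x Genomics Chromium 3′ version 2 kit, per the labels' protocols). For each library the authors deposited a gene-by-barcode table of UMI counts, not normalized. Cell Ranger 2.1.1, Seurat 3.1.0 and the build GRCm38 are named in the submitters' processing notes. Settings of the alignment, annotation release and strand: not given in the sources used here. UMI totals were 2330698 (control), 3808360 (runner) and 2537567 (aged), of which the cells used held 773107, 1801888 and 607385.

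Barcodes with at least 200 genes and under 10% mt- UMIs were clustered together without the members: 2000 variable genes, 30 principal components, 15 neighbours, Leiden resolution 1.0, seed 1. Scanpy 1.11.5, leidenalg 0.10.2, igraph 0.11.9, SciPy 1.17.1 and pandas 2.3.3 were used. No batch correction was made, and doublets (1, 6 and 1 called by Scrublet) were kept. A cluster took the marker list with most genes among its 10 leading genes, given at least 3 markers detected in 25% of its cells and 2-fold above the median cluster, and was called cycling where most cells held 3 or more proliferation genes. Granule and pyramidal names were merged as mature neurons, a choice made after seeing the data. One cluster of 14 cells stayed unnamed. CPM have exact Poisson, shares Clopper-Pearson and ratios exact conditional binomial 95% intervals. The ratio interval was tested on simulated data. UMIs are deduplicated molecules, yet the intervals cover counting error only. Log2 ratios used 0.5 added counts.

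All members are described. By rule, the 5 genes most like each member with at least 50 UMIs are named, and from each list the 4 genes furthest above and below 2-fold by the interval bound nearest 1. Joint genes such as Calb2, Hopx and Ccnd2 were chosen after their values were seen. The members and lists were chosen with earlier results of these data known. The alternatives tried are other cell filters, doublet removal, other clusterings, other scalings, thinning and another reference library.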

Additional observations from a re-analysis of the deposited data

Results flagged for a closer look

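Barcodes outside the filter were not used for the comparisons. In those with 10 to 30% mitochondrially encoded UMIs (442 control, 217 runner and 200 aged), 3 members had a runner interval above the control interval. Neurod1 was at 81.7 CPM in runner (52.4 to 122) and 20.3 in control (9.28 to 38.5), Prox1 at 174 (129 to 228) and 65.4 (43.8 to 93.9), and Sox4 at 180.5 (135 to 236) and 94.7 (68.2 to 128). The difference rests on 1 library per group and was not tested.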

How the results depend on the processing

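No paired analysis was possible because each group is 1 library, and for the same reason no library could be left out. Across the alternatives run, the members highest in neuroblasts numbered 4 to 6 beside 5, and those called higher in runner against control numbered 2 to 4 beside 3, with the Sox11 call lost when CPM was averaged over cells. The count of members 2-fold lower in aged was 1 and became 2 under 20% mt- UMIs and 2 without a mitochondrial filter. Without that filter the share of Neurod1 cells with Sox11 was 82.5%, from 184 of 223 cells, beside 89.5%. With the third library as reference, 5 members were higher in runner (against aged) and 5 lower in aged (against runner). No called member changed direction under any alternative run. For the single-member log2 ratios and 2 further shares, 243 of the values stayed within the interval of the main value and 22 moved outside it, 9 of them without the mitochondrial filter and 7 with the third library. Without that filter the neuroblast ratios of runner against control were 0.55 for Neurod1, 0.59 for Prox1, 0.31 for Sox4 and 0.08 for Sox11 on the log2 scale, above 0 where the main values lie below it. That neuroblast class held 80 control and 204 runner cells, beside 33 and 173 under the main settings. With Calb2 cells alone, an alternative added after seeing the data, the 6 control cells held no Neurod2 and the 130 of runner held 83 UMIs, so no ratio is given. With each cell called by its own markers, the Neurod1 value was 0.26. The cause of these shifts was not tested. Depth limits Eomes and Neurog2 most, and 12 aged neuroblasts limit every aged value in that class.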

Other observations

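The excluded barcodes with at least 30% mitochondrially encoded UMIs (1347 control, 1773 runner and 1677 aged) held Neurod2 at 18.9 CPM (11.6 to 29.2) in control, 38.5 (29.1 to 50) in runner and 17.0 (11.1 to 24.8) in aged, from 20, 56 and 26 UMIs. The ratio of runner against control was 2.04 (1.20 to 3.58) there, 2.56 (1.23 to 5.53) at 10 to 30% and 6.57 (3.47 to 14.0) in the cells used. Neurod1 had 2, 10 and 0 UMIs in the same barcodes. Sox11 had 66, 81 and 62 UMIs in 65, 74 and 62 of them, so nearly every positive barcode held 1 UMI, whereas neuroblasts with Sox11 held 5.92 UMIs on average.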
